A study of Mus musculus with 14 samples.

Results

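The miR-25 and miR-92 seed family was followed through cells of the mouse small intestine sorted by Sox9-eGFP fluorescence. Its members were taken by name. They are the entries without a shift suffix whose names begin with miR-25, miR-92a-1, miR-92a-2 or miR-92b. The rule found 8 of the 2030 miRNA entries in the deposited table, 4 of the -3p arm and 4 of the -5p arm, and all 8 passed the filter on low values that left 588 entries for testing. The family name holds for the -3p arms, which carry the shared seed. The -5p arms come from the opposite strands of the same hairpins and are described separately.

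The cells came from C57BL/6J mice in which green fluorescence reports on the transcription factor gene Sox9, and all groups share that strain and reporter. The libraries comprised High cells (n = 3), Negative cells (n = 3), Sublow cells (n = 3) and Low cells (n = 3), named after their fluorescence gate, and Non-sorted cells (n = 2). From earlier work with this reporter, High cells are linked with enteroendocrine cells, Negative cells with differentiated epithelium, Sublow cells with transit-amplifying progenitors and Low cells with crypt base stem cells. A gate on fluorescence gives enriched mixtures, not pure cell types. Age, sex and treatment of the mice are not given in the labels. The labels do not say whether libraries of a group came from separate mice, and the p-values reflect only how far these libraries differ, which may be technical.

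A miRNA pairs with its target mRNAs mainly through the seed, bases 2 to 8 of the mature strand, so miRNAs that share a seed share many predicted targets. Known targets of this family include the pro-apoptotic gene Bcl2l11 (Bim). The members are made from separate places in the genome. Mir25 lies in an intron of Mcm7, a gene for a subunit of the replicative helicase, beside Mir106b and Mir93. Mir92-1 is part of the miR-17-92 cluster, a target of Myc that is widely linked with proliferation, and Mir92-2 belongs to its X-linked relative, the miR-106a-363 cluster. Mir92b stands apart from these clusters and has been described in neural progenitors.

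The mature strands are shown because they define the family and set its members apart. RefSeq (GRCm38.p6) lists 1738 rows of mature mouse miRNAs with 1674 distinct sequences. Of these, 7 rows with 6 distinct sequences carry the seed AUUGCAC, in capitals here.
miR-25-3p: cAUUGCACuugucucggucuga
miR-92a-3p: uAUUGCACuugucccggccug
miR-92b-3p: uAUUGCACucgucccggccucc
miR-363-3p: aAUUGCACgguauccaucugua
miR-32-5p: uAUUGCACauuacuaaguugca
Counted from the 5′ end, with the base of miR-92a-3p first, miR-25-3p differed from miR-92a-3p by U1C, C14U and C18U over 21 compared positions, and miR-92b-3p differed from it by U10C and G21C. The sixth sequence of this seed, miR-367-3p, was not analysed here.

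On GRCm38.p6, mature miR-25-3p lies at chr5:138165332-138165353 on the minus strand. In GENCODE vM21 its hairpin is intronic in Mcm7 on the same strand and falls in an exon of 1 Mcm7 transcript annotated as a retained intron. miR-92b-3p lies at chr3:89227126-89227147 on the minus strand, where no other annotated gene overlaps the hairpin. miR-92a-3p has the same mature sequence at both of its loci, chr14:115044476-115044496 on the plus strand, in an exon of the long non-coding RNA Mir17hg, and chrX:52741854-52741874 on the minus strand, outside other genes. The hairpins of these loci are shown because the table has an entry for each copy, with the mature -3p strand in capitals.
Mir92-1: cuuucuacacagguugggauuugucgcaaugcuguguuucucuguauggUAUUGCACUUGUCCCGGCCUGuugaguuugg
Mir92-2: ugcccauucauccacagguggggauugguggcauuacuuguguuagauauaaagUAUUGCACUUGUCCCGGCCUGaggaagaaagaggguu
The hairpins differ outside the mature strand, with uugag after it in Mir92-1 and aggaa in Mir92-2. How reads of the shared strand were divided between the miR-92a-1-3p and miR-92a-2-3p entries is not given in the sources used here, so no change of one of them can be assigned to its own locus. Counts, medians and sums over the members may also rest in part on the same reads in both entries.

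Levels are in RPM over miRNA entries, reads scaled by the authors so that each library totals 1e+06. They are shares of a library's miRNA reads, and in such bulk samples fewer cells of a type and less RNA per cell cannot be told apart. Depth estimated from the steps between low values was 1.89 to 16.4 M reads (M, 1e+06; median 4.997), and a listed 0 was read as fewer than about 10 reads. The endocrine list (miR-375-3p and the miR-7, miR-182, miR-183 and miR-96 entries, 7 of 7 listed) summed to 210610 to 239803 RPM in High, 8904 to 10691 RPM in Negative, 40441 to 43499 RPM in Sublow and 119875 to 144770 RPM in Low libraries. The epithelial miR-192, miR-194 and miR-215, under control of hepatocyte nuclear factors, summed to 136750 to 163025 RPM in High, 560040 to 560997 RPM in Negative, 400632 to 418115 RPM in Sublow and 168252 to 195716 RPM in Low libraries. Of 4 listed erythroid miRNAs, miR-451 and miR-144-3p were at 0 in all libraries and 1 or 2 were above 0 in each group, and the list summed to 7.39 to 38.3 RPM. Of 6 listed mesenchymal and smooth muscle miRNAs, miR-145-5p was at 0 in all libraries and 5 were above 0 in every group, and the list summed to 24.5 to 132 RPM. Of 5 listed haematopoietic miRNAs, miR-142-3p was at 0 in all libraries and 2 to 4 were above 0 in each group, and the list summed to 11.1 to 67.3 RPM in High, 6.51 to 103 RPM in Negative, 11.7 to 161 RPM in Sublow and 42.4 to 213 RPM in Low libraries. The part of these cell types in the results was not tested. miR-295-3p, a miRNA of pluripotent cells, was listed in 7 libraries of all 5 groups at 395 to 928 RPM and at 0 in the other 7. Differences are given from limma on log2(RPM + 1) as first group minus second, with Benjamini-Hochberg adjustment over all 588 entries and a threshold of 0.05. Comparisons that name the same group share its libraries.

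The 3 abundant -3p members were highest in Low cells, whereas miR-92b-3p was highest in High cells. Among the 534 entries at the annotated start, ranked by mean level, miR-92a-1-3p stood at rank 29, miR-25-3p at 34, miR-92a-2-3p at 63 and miR-92b-3p at 96. All 4 differed among the 4 sorted populations by the moderated F test in limma, as did 72.3% of all tested entries. The adjusted p was 2.05e-07 for miR-25-3p, 1.17e-04 for miR-92a-1-3p, 2.62e-05 for miR-92a-2-3p and 4.79e-09 for miR-92b-3p.

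miR-25-3p, listed as mmu-mir-25-3p, stood at 2856, 2740.3 and 3401 RPM in High, 1713, 1606 and 1821 RPM in Negative, 3820.2, 5249.8 and 4839 RPM in Sublow and 7295, 8534 and 8045 RPM in Low libraries, and at 2544 and 2102 RPM in Non-sorted libraries. The order of the sorted populations was Low, Sublow, High, Negative, with no overlap between any 2 of them. Every neighbouring pair in that order passed the test.

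miR-92a-1-3p, listed as mmu-mir-92a-1-3p, stood at 4358, 2551 and 5849 RPM in High, 3449, 3902 and 4844 RPM in Negative, 6000.6, 6549 and 7082 RPM in Sublow and 15793, 11174 and 17010.45 RPM in Low libraries, and at 4396 and 4358 RPM in Non-sorted libraries. Low libraries lay above all others. High and Negative libraries overlapped, and the difference between their means (−0.0013, 95% interval −0.56 to 0.56, adjusted p = 0.996) did not pass.

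miR-92a-2-3p, listed as mmu-mir-92a-2-3p, stood at 329, 259 and 399.7 RPM in High, 596, 628.5 and 479 RPM in Negative, 949, 802 and 649.6 RPM in Sublow and 1323, 991 and 1166 RPM in Low libraries, and at 631 and 556 RPM in Non-sorted libraries. Its order was Low, Sublow, Negative, High. The neighbours Negative and Sublow did not overlap, but their difference did not pass (−0.49, adjusted p = 0.0670). It passed without High replicate 2 or Sublow replicate 3 (adjusted p = 0.0451 and 0.0377), with lane as a term (−0.55, adjusted p = 0.0401) and with a filter of 50 RPM (adjusted p = 0.0461). After median-ratio rescaling it was at −0.0087 and after quantile normalization at −0.36 (adjusted p = 0.212), and it passed in neither.

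miR-92b-3p, listed as mmu-mir-92b-3p, stood at 558, 530.4 and 706 RPM in High, 7.3, 6.71 and 6.92 RPM in Negative, 47.8, 59.1 and 49.1 RPM in Sublow and 417, 272 and 443 RPM in Low libraries, and at 78.0 and 35.9 RPM in Non-sorted libraries. Its order was High, Low, Sublow, Negative, and no 2 sorted populations overlapped. The endocrine list had the same order of populations, and its part in the differences of miR-92b-3p was not tested.

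**Figure D1:**
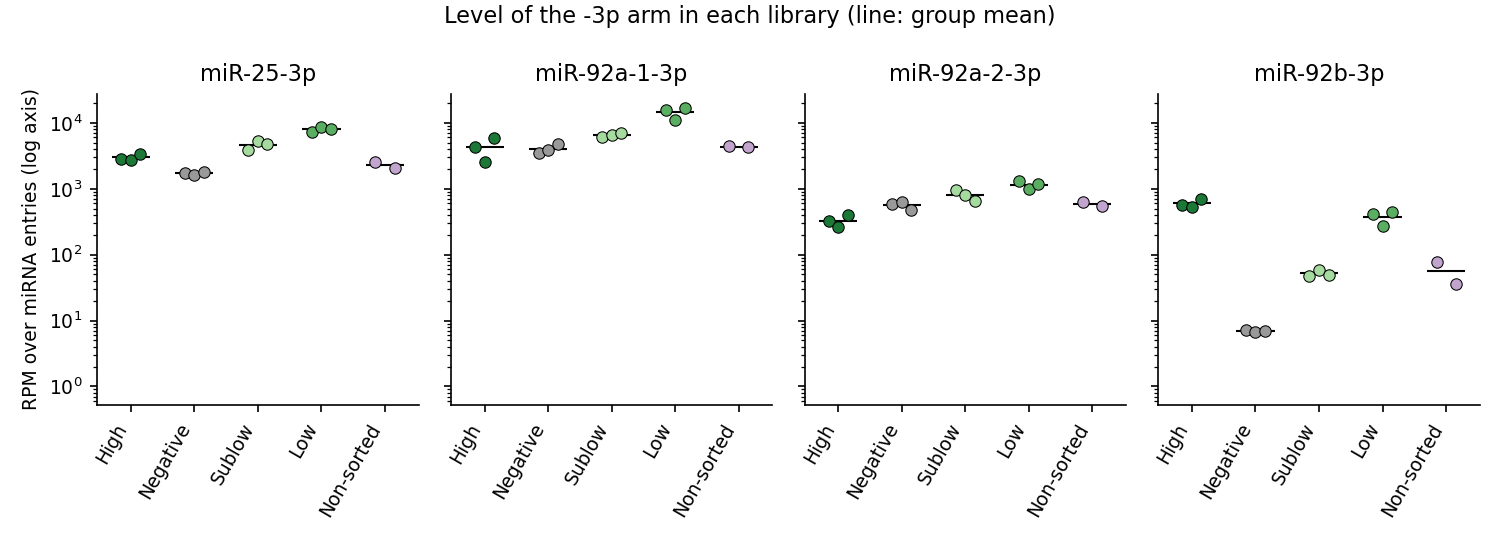
Level of each -3p member in RPM (log axis) in every library, with a line at the mean of each group (n = 3, and n = 2 for Non-sorted). The 3 panels from the left peak in Low cells, and miR-92b-3p spans 6.71 RPM in a Negative library to 706 RPM in a High library.

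The comparison of High with Low cells sets the most fluorescent gate against the gate linked with stem cells. miR-25-3p was 2.66 times lower in High (−1.41, SE 0.13, adjusted p = 1.75e-05), miR-92a-1-3p 3.59 times lower (−1.84, SE 0.26, adjusted p = 2.83e-04) and miR-92a-2-3p 3.55 times lower (−1.83, SE 0.19, adjusted p = 3.42e-05). miR-92b-3p went the other way, with all High libraries above all Low libraries, but its difference (0.68, 95% interval 0.09 to 1.27, adjusted p = 0.0822) did not pass. It passed after median-ratio rescaling (1.007, adjusted p = 0.0108), after quantile normalization (adjusted p = 0.0147) and without either Non-sorted library (adjusted p = 0.0278 and 0.0282). Of the 8 entries of both arms, 6 were lower and 0 higher in High, where 20.1% of all tested entries were called lower and 7.99% higher. The 6 include miR-92a-2-5p, which passed the filter only through Low and Non-sorted libraries. The median difference was −1.62 over the 4 -3p members and −0.11 over all tested entries. Rescaling by median ratios shifted this comparison by 0.32, and the 3 decreases remained past the threshold (−1.08, −1.52 and −1.50). Between libraries whose labels read Combo and L000 (2 High and 2 Low), terms that the labels do not explain, the differences were −1.57 for miR-25-3p, −2.05 for miR-92a-1-3p, −1.88 for miR-92a-2-3p and 0.65 for miR-92b-3p.

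Sublow cells, linked with progenitors, carried less of all 4 -3p members than Low cells. The decrease was steepest for miR-92b-3p, at 7.02 times lower in Sublow (−2.81, SE 0.27, adjusted p = 1.33e-05). miR-25-3p (−0.79, SE 0.13, adjusted p = 7.31e-04), miR-92a-1-3p (−1.14, SE 0.26, adjusted p = 0.00472) and miR-92a-2-3p (−0.54, SE 0.19, adjusted p = 0.0440) fell less. Over both arms 7 of 8 entries were lower and 0 higher, where 24.3% of all tested entries were called lower and 10.4% higher. Rescaling shifted this comparison by 0.39 and left miR-92a-2-3p at −0.15 (adjusted p = 0.668). The call of miR-92a-2-3p was also lost in 9 of 14 fits that left out 1 library, any of High replicate 1, Negative replicates 1 and 2, Sublow replicates 2 and 3, Low replicates 1 and 3 and both Non-sorted libraries, with adjusted p up to 0.157. Quantile normalization left miR-25-3p at −0.25 (adjusted p = 0.156) and miR-92a-1-3p at −0.75 (adjusted p = 0.107). Without the Combo libraries, which left only Low replicate 1 of the Low group, miR-25-3p was at −0.67. Within lane L005 (2 Sublow libraries and 1 Low library), the differences were −0.76, −1.28, −0.75 and −3.08 for miR-25-3p, miR-92a-1-3p, miR-92a-2-3p and miR-92b-3p.

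Negative cells, linked with differentiated epithelium, also carried less of every -3p member than Low cells. miR-92b-3p was 46.5 times lower in Negative (−5.54, SE 0.27, adjusted p = 7.60e-09). miR-25-3p was 4.64 times lower (−2.21, SE 0.13, adjusted p = 4.46e-08), miR-92a-1-3p 3.58 times lower (−1.84, SE 0.26, adjusted p = 6.04e-05) and miR-92a-2-3p 2.04 times lower (−1.03, SE 0.19, adjusted p = 5.12e-04). Over both arms 7 of 8 entries were called lower and 0 higher in Negative, against 49.5% and 16.5% of all tested entries. The median of all tested entries was −0.90 and rescaling shifted the comparison by 0.84. After it miR-92b-3p stood at −4.71, miR-25-3p at −1.34, miR-92a-1-3p at −0.96 and miR-92a-2-3p at −0.15, the last no longer past the threshold (adjusted p = 0.534). Lane L005 held 1 library of each group, and they differed by −5.72 for miR-92b-3p and by −2.001 for miR-25-3p.

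**Figure D2:**
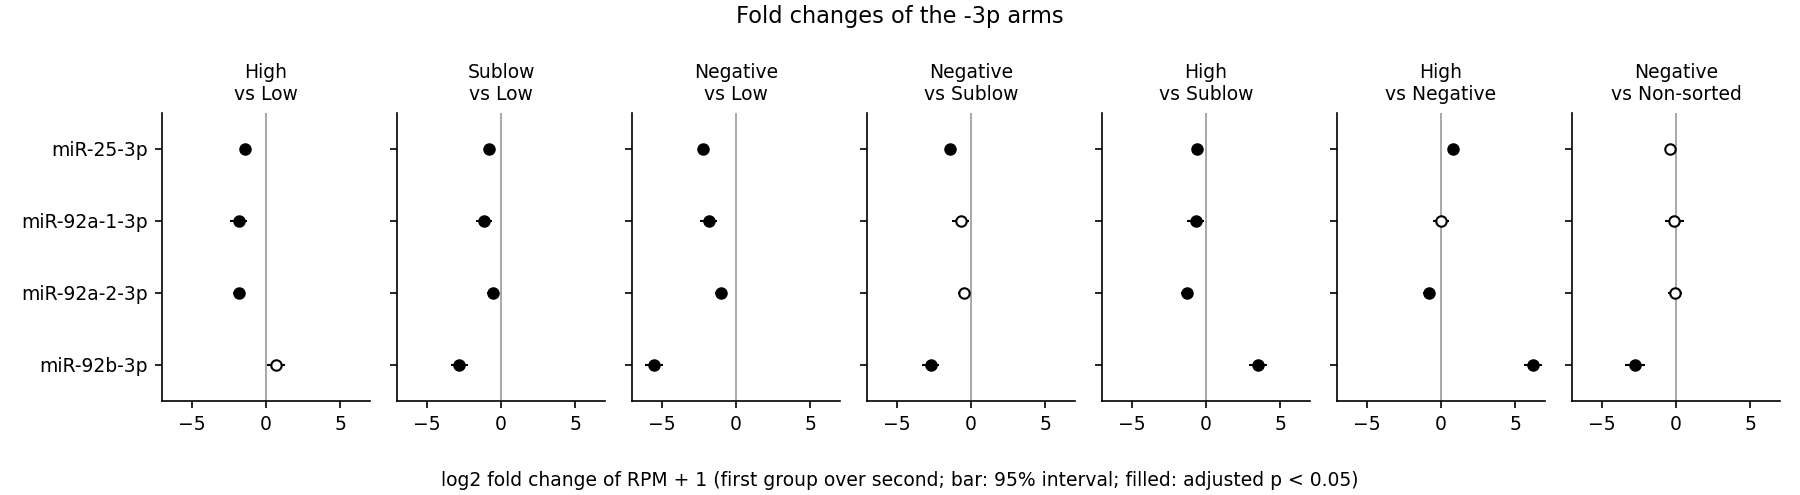
log2 fold change of RPM + 1 for each -3p member in 7 comparisons, first group over second, with bars for 95% intervals and filled points where the adjusted p is under 0.05. miR-92b-3p runs from −5.54 in Negative vs Low to 6.22 in High vs Negative, while the other members stay between −2.21 and 0.80.

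Negative cells were also set against Sublow cells, the step linked with leaving the progenitor state. miR-25-3p (−1.42, adjusted p = 9.75e-06) and miR-92b-3p (−2.73, 6.62 times lower, adjusted p = 1.27e-05) were lower in Negative. They were the 2 entries called of 8, where 26.9% of all tested entries were called lower and 8.67% higher. miR-92a-1-3p did not pass in Negative vs Sublow (−0.70, 95% interval −1.26 to −0.13, adjusted p = 0.0537). It passed with the replicate number as a block (adjusted p = 0.0137), with the miR-295-3p level as a covariate (−0.54, adjusted p = 0.0472), with shifted forms summed in (adjusted p = 0.0493), with a filter of 50 RPM (adjusted p = 0.0365) and without the Combo libraries (adjusted p = 0.00950). It also passed without High replicate 2 or 3, Negative replicate 3 or Low replicate 2 (adjusted p from 0.0101), though not after rescaling (−0.22, adjusted p = 0.615).

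High cells against Sublow cells split the family. miR-92b-3p was 11.3 times higher in High (3.49, SE 0.27, adjusted p = 8.93e-07), whereas miR-25-3p (−0.62, adjusted p = 0.00222), miR-92a-1-3p (−0.70, adjusted p = 0.0397) and miR-92a-2-3p (−1.28, adjusted p = 1.56e-04) were lower. Over both arms 2 entries were higher and 3 lower of 8, against 28.1% and 22.4% of all tested entries. The call of miR-92a-1-3p was lost with lane as a term (adjusted p = 0.175) and in 8 of 14 fits that left out 1 library, any of High replicates 1 and 2, Negative replicate 2 and the Sublow and Non-sorted libraries. Without High replicate 2 it was at −0.37 (adjusted p = 0.1502), and in the libraries that do not list miR-295-3p its call was lost as well (−0.37). Without the 4 libraries labelled Combo, which left only High replicate 3 of the High group, it was at −0.16. The call of miR-25-3p was lost in the libraries that do not list miR-295-3p (−0.46), and without the Combo libraries it was at −0.43. High and Sublow libraries share no lane.

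High cells against Negative cells gave the widest gap of the family, in miR-92b-3p, which was 74.5 times higher in High (6.22, SE 0.27, adjusted p = 1.43e-09). miR-25-3p was higher (0.80, adjusted p = 2.21e-04) and miR-92a-2-3p lower (−0.80, adjusted p = 0.00302). Over both arms 3 entries were higher and 2 lower of 8, where 43.9% and 22.4% of all tested entries were called. Rescaling shifted this comparison by −0.52, after which miR-25-3p was at 0.25 (adjusted p = 0.0775) and miR-92b-3p at 5.72. With lane as a term neither miR-25-3p (0.58, adjusted p = 0.113) nor miR-92a-2-3p (−0.52, adjusted p = 0.265) passed. In the libraries that do not list miR-295-3p, which hold only Negative replicate 3 of its group, miR-92a-2-3p was at −0.40. Without the Combo libraries, which left only High replicate 3 of the High group, miR-92a-2-3p was at −0.50. High and Negative libraries share no lane. Among libraries that list miR-295-3p (1 High and 2 Negative), miR-92b-3p differed by 6.05, and among the others (2 High and 1 Negative) by 6.31.

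Against Non-sorted cells, Negative cells differed in miR-92b-3p alone among the 8 entries, 6.77 times lower in Negative (−2.76, adjusted p = 8.90e-05), where 3.74% of all tested entries were called lower and 0% higher. The other -3p members were at −0.43 for miR-25-3p, −0.12 for miR-92a-1-3p and −0.07 for miR-92a-2-3p, and did not pass. miR-25-3p passed after quantile normalization (−0.60, adjusted p = 0.0202). With quantile normalization miR-92a-1-3p was at 0.07, and with median-ratio rescaling miR-92a-2-3p was at 0.01, so neither has a settled direction. The Non-sorted group has 2 libraries, whose miR-92b-3p levels were 78.0 and 35.9 RPM.

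The sum over all listed miRNAs of this seed, including miR-363-3p and miR-32-5p, is a description and was not tested. It averaged 8189 ± 2134 RPM in High, 6364 ± 710 RPM in Negative, 12043 ± 1050 RPM in Sublow, 24171 ± 2897 RPM in Low (SD, n = 3 each) and 7368 ± 419 RPM in Non-sorted libraries (SD, n = 2). The seed thus made up 2.42% of the miRNA reads of Low libraries and 0.636% to 1.20% in the other groups. Most of the sum came from the 2 miR-92a entries, which held 54.7% of it in High, 72.7% in Negative, 61.1% in Sublow and 65.0% in Low libraries. Reads of their shared mature strand may be listed in both, in which case the sum and these shares overstate them. miR-25-3p held 37.7%, 27.1%, 38.3% and 33.4% in the same order. miR-92b-3p held 7.46% ± 1.07 in High, 0.111% ± 0.015 in Negative, 0.432% ± 0.040 in Sublow and 1.55% ± 0.22 in Low libraries (SD, n = 3 each). It was a minor part of the seed's reads in every group, including the High libraries where its own level peaked.

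**Figure D3:**
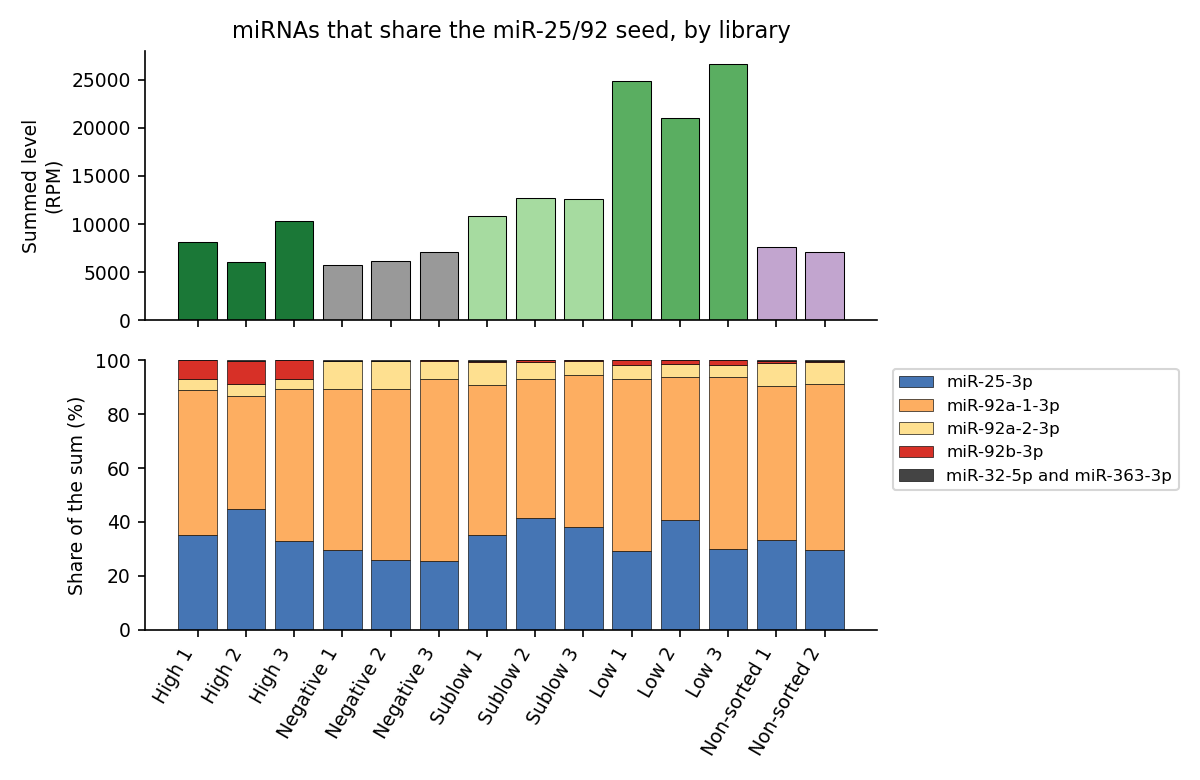
Summed level (RPM, upper bars) of the miRNAs with the shared seed in each library, and the share of each miRNA in that sum (percent, lower bars). The 3 Low libraries stand at 20996 to 26671 RPM, above the others, and miR-92b-3p takes 6.81% to 8.70% of the sum in High libraries.

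Ratios of RPM between members within a library do not depend on how libraries are scaled. The tested log2 ratios were taken on RPM + 1, which leaves a slight dependence where levels are low. miR-92b-3p was 19.5%, 19.4% and 20.7% of miR-25-3p in High, 0.426%, 0.418% and 0.380% in Negative, 1.25%, 1.12% and 1.014% in Sublow and 5.72%, 3.19% and 5.51% in Low libraries. These ratios did not overlap between any 2 sorted populations. An exact permutation test of the F statistic over the 12 sorted libraries gave p = 6.49e-05 (adjusted over 4 ratios 1.30e-04), the smallest p that its 369600 assignments allow. The ratio of miR-92b-3p to miR-92a-1-3p averaged 15.2% ± 4.84 in High, 0.175% ± 0.035 in Negative, 0.797% ± 0.105 in Sublow and 2.56% ± 0.11 in Low libraries (SD, n = 3 each), with the same exact p.

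The other 2 ratios moved less. miR-92a-1-3p was 1.39 ± 0.41 times miR-25-3p in High, 2.37 ± 0.33 in Negative, 1.43 ± 0.16 in Sublow and 1.86 ± 0.48 in Low libraries (SD, n = 3 each). That ratio did not pass the exact permutation test (p = 0.0712 raw and adjusted), though it did without Low replicate 2 (adjusted p = 0.0313). miR-92a-2-3p was 8.18% ± 1.75 of miR-92a-1-3p in High, 14.4% ± 4.0 in Negative, 12.4% ± 3.3 in Sublow and 8.03% ± 1.05 in Low libraries (SD, n = 3 each). The exact permutation p was 0.0505 (adjusted p = 0.0673), and it passed without Negative replicate 3 (adjusted p = 0.0324). This last ratio is between entries of the same mature strand, whose reads were divided in a way that is not given, and not between different miRNAs.

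**Figure D4:**
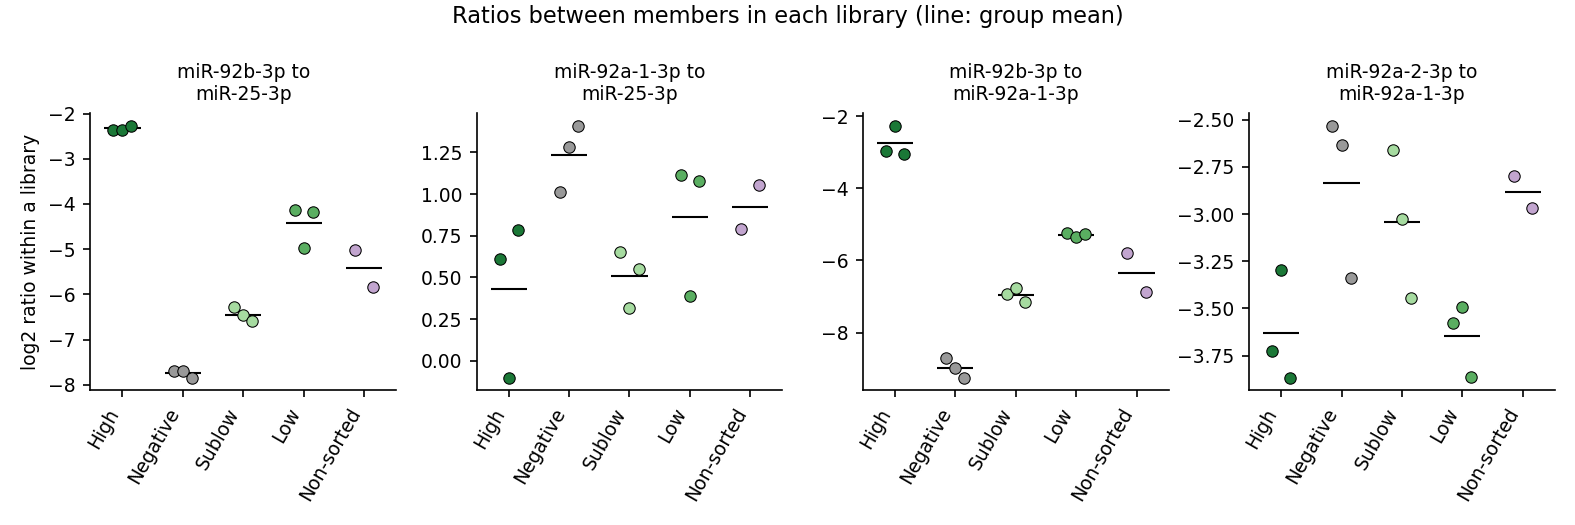
log2 ratio between members within each library, with a line at the mean of each group (vertical scales differ between panels). The ratios of miR-92b-3p to miR-25-3p and to miR-92a-1-3p separate the 4 sorted populations, and the other 2 ratios overlap between populations.

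The -5p arms were scarce. Across the libraries the -5p arm made up 0.169% to 0.891% of both arms at Mir25, 0.122% to 0.920% at the miR-92a-1 entries, 0% to 1.67% at the miR-92a-2 entries and 0% to 5.83% at Mir92b. miR-92b-5p ran with its -3p arm, at 23.2, 17.8 and 20.1 RPM in High, 0 RPM in all Negative, 0.98, 0 and 1.21 RPM in Sublow and 11.2, 16.9 and 14.6 RPM in Low libraries. It was higher in High than in Sublow cells (3.70, adjusted p = 2.89e-05) and lower in Sublow than in Low cells (−3.20, adjusted p = 2.01e-04). It passed the filter only through High and Low libraries, the groups where it was high. Between High and Low cells its difference (0.50, adjusted p = 0.447) did not pass. Non-sorted libraries also listed it at 0 RPM.

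miR-25-5p stood at 4.84, 19.9 and 17.97 RPM in High, 8.22, 8.34 and 16.4 RPM in Negative, 17.4, 18.2 and 18.8 RPM in Sublow and 54.5, 38.0 and 51.1 RPM in Low libraries. All Low libraries lay above the other sorted ones. It was lower than in Low cells in High (−1.87, adjusted p = 0.00836), Sublow (−1.34, adjusted p = 0.0352) and Negative cells (−2.08, adjusted p = 0.00138), though in Sublow cells not after rescaling (adjusted p = 0.138) or without any of Sublow replicates 1 to 3 or Low replicates 1 and 3 (adjusted p up to 0.0909). miR-92a-1-5p ranged from 6.33 to 23.7 RPM in High, 10.2 to 12.4 RPM in Negative, 9.03 to 16.6 RPM in Sublow and 19.3 to 59.2 RPM in Low libraries. It passed in High (−1.51, adjusted p = 0.0397), Sublow (−1.51, adjusted p = 0.0334) and Negative cells (−1.59, adjusted p = 0.0135) against Low cells, and none of these calls held after rescaling (adjusted p = 0.0888, 0.109 and 0.212). Without Low replicate 2 they were lost as well (adjusted p = 0.143, 0.123 and 0.0615). miR-92a-2-5p ranged from 0 to 13.6 RPM. It was listed at 0 in Sublow replicate 3 and in High replicates 2 and 3, where the smallest listed values of any entry were 3.48 and 5.55 RPM. It reached 10 RPM only in Low replicates 1 and 2 and Non-sorted replicate 1, so it entered the tests through groups where it was high. It was called lower in High than in Low cells (−2.76, adjusted p = 0.0230) and in High than in Negative cells (−2.10, adjusted p = 0.0360). Neither call held without a filter (adjusted p = 0.0522 and 0.0733), with lane as a term (adjusted p = 0.141 and 0.902) or without High replicate 2 (adjusted p = 0.0582 and 0.0852).

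Shifted forms, whose suffix was read as the number of bases by which the start departs from the annotated position, were a small part of each -3p member. The table lists 8 of them for miR-25-3p, 11 for miR-92a-1-3p, 5 for miR-92a-2-3p and 2 for miR-92b-3p. The most abundant was in each case the form that starts 1 base later, which moves the seed to UUGCACU, a seed that 0 of the annotated mature mouse miRNAs carry. It is shown for the most abundant member, with the moved seed in capitals.
miR-92a-3p, start moved by 1 base: aUUGCACUugucccggccug
For miR-92a-1-3p this form ran from 85.3 to 448 RPM over the libraries, and for miR-25-3p from 17.1 to 86.2 RPM. As a share of itself plus the annotated form it was 3.03% ± 0.20 in High, 2.50% ± 0.17 in Negative, 2.38% ± 0.12 in Sublow and 2.34% ± 0.26 in Low libraries (SD, n = 3 each) for miR-92a-1-3p. It followed its parent, lower than in Low cells in High (−1.45, adjusted p = 0.00126), Sublow (−1.11, adjusted p = 0.00523) and Negative cells (−1.73, adjusted p = 9.22e-05). The moved form of miR-92b-3p, at 0 to 24.9 RPM, was higher in High than in Sublow cells (3.66, adjusted p = 5.50e-04).

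The hairpins of Mir25 and of the miR-92a loci are transcribed in clusters, and the partners did not all move with the members. In the miR-106b-25 cluster 3 partner entries were tested. miR-93-5p averaged 1294 ± 80 RPM in High, 2218 ± 151 RPM in Negative, 3259 ± 467 RPM in Sublow and 4138 ± 343 RPM in Low libraries (SD, n = 3 each). It was lower than in Low cells in High (−1.67, adjusted p = 6.51e-06) and Negative cells (−0.90, adjusted p = 1.17e-04), as was miR-106b-3p (−1.14, adjusted p = 0.00107, and −1.24, adjusted p = 1.28e-04). Of all tested entries, 20.1% were called lower and 7.99% higher in High vs Low, and 49.5% and 16.5% in Negative vs Low. The third partner, miR-106b-5p, did not pass in High (−0.69, adjusted p = 0.269), Sublow (−0.13, adjusted p = 0.839) or Negative cells (0.05, adjusted p = 0.922) against Low cells. In High vs Negative, miR-93-5p was lower in High (−0.78, adjusted p = 3.39e-04) where its neighbour miR-25-3p was higher (0.80), and the difference between these 2 changes was not tested.

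In the miR-17-92 cluster 7 partner entries were tested, and 4 were lower in High than in Low cells with a median of −1.06, beside 20.1% of all tested entries called lower and 7.99% higher. They included miR-17-5p (−2.03, adjusted p = 3.57e-04) and miR-20a-5p (−2.03, adjusted p = 0.00131), miRNAs of another seed. In Sublow vs Low 0 of 7 partners passed, with a median of 0.14, where miR-92a-1-3p was lower, as were 24.3% of all tested entries (10.4% were higher). In Negative vs Low 1 of 7 passed, miR-17-3p (−1.25, adjusted p = 0.00707), with a median of −0.30 beside −1.84 for miR-92a-1-3p, where 49.5% of all tested entries were called lower and 16.5% higher. miR-17-5p averaged 135 ± 59 RPM in High, 375 ± 11 RPM in Negative, 606 ± 97 RPM in Sublow and 525 ± 53 RPM in Low libraries (SD, n = 3 each), so its mean was highest in Sublow libraries and that of miR-92a-1-3p in Low libraries. The differences between the changes of miR-92a-1-3p and of these partners were not tested, and the reads of that entry cannot be assigned to this cluster alone.

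In the miR-106a-363 cluster, the partners of Mir92-2, 0 of 4 tested entries passed against Low cells in High, Sublow or Negative cells, where 20.1%, 24.3% and 49.5% of all tested entries were called lower and 7.99%, 10.4% and 16.5% higher. One of these partners, miR-19b-2-3p, ran close to miR-19b-1-3p of the preceding cluster in every library. In High libraries they stood at 73.46, 196.96 and 70.57 RPM and at 72.57, 196.78 and 67.4 RPM. How reads were divided between these entries is not given, so neither can be assigned to its own locus. The counts and medians of both clusters may therefore rest in part on the same reads. In High vs Negative, miR-106a-5p (−3.14, SE 1.17, adjusted p = 0.0333) and miR-20b-5p (−3.45, SE 1.33, adjusted p = 0.0387) were lower in High. miR-106a-5p stood at 2.72, 51.2 and 0 RPM in High and 77.1, 77.3 and 20.6 RPM in Negative libraries. For miR-20b-5p the values were 12.7, 119 and 0 RPM in High and 184, 210 and 54.4 RPM in Negative libraries. In both groups the libraries that list miR-295-3p held the higher values, and the part of that split in these calls was not tested. miR-363-3p, which shares the family's seed, was listed in all libraries at 3.19 to 19.7 RPM and passed in none of the 7 comparisons. miR-32-5p  ranged from 0 to 6.94 RPM and was below the filter.

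**Figure D5:**
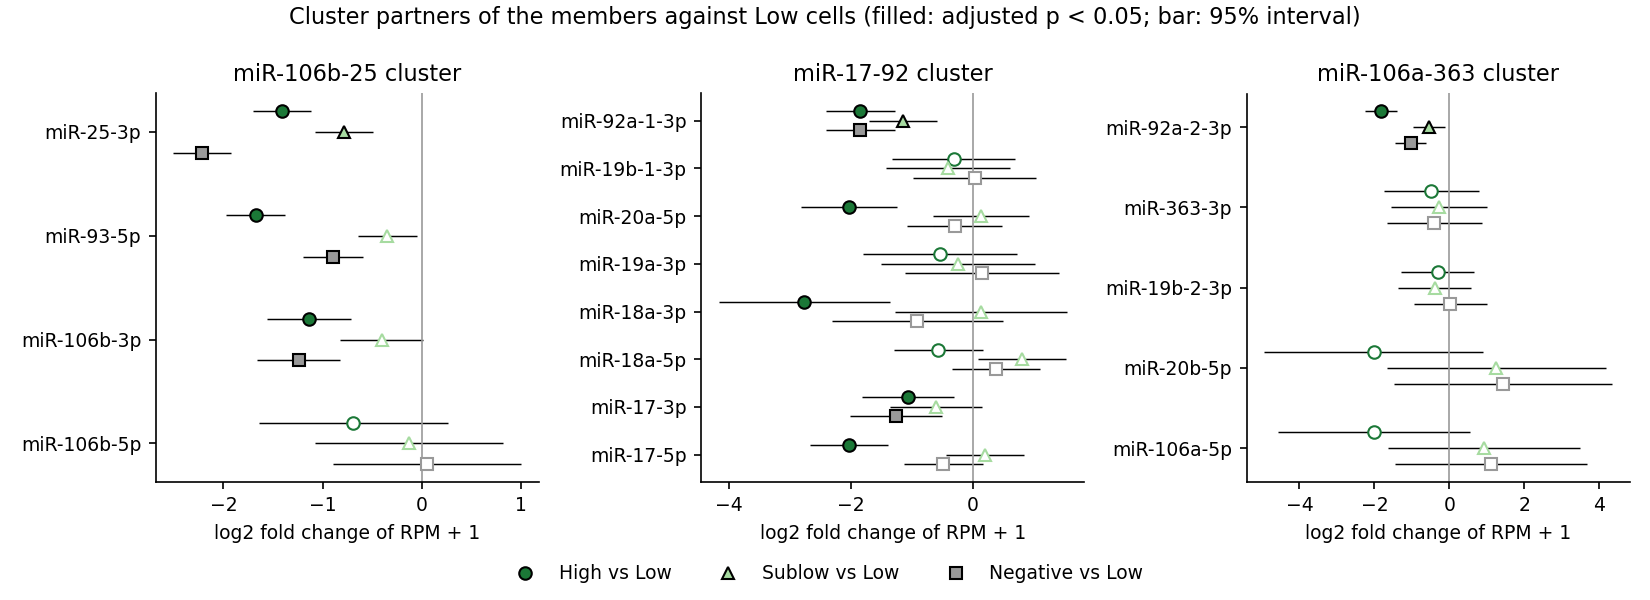
log2 fold change of RPM + 1 against Low cells for the members and their cluster partners, in High (circles), Sublow (triangles) and Negative cells (squares), with bars for 95% intervals and filled symbols where the adjusted p is under 0.05. In Sublow vs Low the symbols of miR-25-3p (−0.79), miR-92a-1-3p (−1.14) and miR-92a-2-3p (−0.54) are filled and those of the partners are open.

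Across the 12 sorted libraries the members differed in which other miRNAs they resembled. The points share libraries and populations, so the coefficients are descriptions without a p. Among 113 entries of sufficient level, miR-92b-3p was most like miR-125a-5p (Pearson r = 0.994), let-7e-5p (r = 0.993) and miR-1224-5p (r = 0.982). miR-25-3p was most like miR-148a-3p (r = 0.981), miR-98-5p (r = 0.974) and let-7i-5p (r = 0.971). miR-92a-1-3p was most like miR-106b-3p (r = 0.913), and miR-92a-2-3p was most like miR-181b-1-5p (r = 0.944). Among the members, the r between miR-92a-1-3p and miR-25-3p was 0.867, and that between miR-92a-2-3p and miR-92b-3p was −0.06.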

How the data were processed

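Small RNA was sequenced from 14 libraries of mouse small intestine (TriLink CleanTag kit, per the labels' protocols), and the table of the whole series was used. The authors deposited RPM over miRNA entries; the genome build is mm9, per the submitters' processing notes, and aligner and counter are not given in the sources. A listed 0 stands for a value under the limit, since the smallest listed values equal 9.99 to 10.9 reads; 71.2 to 84.8 percent of low values were whole numbers of reads within 0.1 read.

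From these values log2(RPM + 1) was computed, a scale that understates changes of low entries. Entries with at least 10 RPM in at least 3 libraries were tested (588). A linear model with 5 groups was fitted in R 4.3.3 with limma 3.58.1 and a mean-variance trend. Tests were two-sided, and p-values were adjusted by Benjamini-Hochberg over all 588. The procedure was tested on simulated data. Ratios were tested by exact permutation over the 12 sorted libraries and adjusted over 4 ratios. Python 3.11.15 and matplotlib 3.10.9 made the figures. Sequences are from RefSeq (GRCm38.p6), matched by miRNA name, and gene overlaps from GENCODE vM21; no coordinates of mm9 were used. Alternatives covered the pseudocount, filter, scaling, lane, replicate number, miR-295-3p level, shifted forms, the trend and each library left out.

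The members, the partners and the marker lists were chosen with earlier results of these data known. Named are all members, the most abundant shifted form of each -3p member, the cluster partners that passed or were needed, the other miRNAs of the seed, and for likeness up to 3 tested annotated-start entries per -3p member with the highest Pearson r among those with a mean of at least 100 RPM. Other marker lists summed, over all libraries, to 7.39 to 38.3 RPM (erythroid), 6.51 to 213 RPM (haematopoietic), 24.5 to 132 RPM (mesenchymal), 0 to 2224 RPM (pluripotency) and 0 to 17.1 RPM (endothelial).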

Additional observations from a re-analysis of the deposited data

How the results depend on the processing

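No member called in a comparison changed direction under any of the alternatives run, and among planned ones that kept all libraries 600 of 644 values for single members stayed on their side of the threshold. Of 8 entries, the number called in Sublow vs Low was 4 without a filter, 4 after median-ratio rescaling and 2 after quantile normalization. Added after seeing the data were 2 settings, the libraries that do not list miR-295-3p and the fit without the 4 libraries labelled Combo. The first keeps only Negative replicate 3 of its group, and the second only High replicate 3 and Low replicate 1 of theirs. Both called fewer members in High vs Low, Sublow vs Low, High vs Sublow and High vs Negative, with fewer libraries to test. Quantile normalization gave 2 in Negative vs Non-sorted and a lane term 2 in High vs Negative. A filter of 50 RPM kept the -3p entries only and called 3 of 4 in High vs Low, 4 in Sublow vs Low, 4 in Negative vs Low, 4 in Negative vs Sublow and 3 in High vs Negative. The F test lost miR-92a-1-5p without a filter (adjusted p = 0.0564), with rescaling (0.131), quantile normalization (0.0522), a lane term (0.0751), the libraries without miR-295-3p (0.146) and without the Combo libraries (0.555). It lost miR-92a-2-5p with pseudocount 10 (0.0630), without a filter (0.0821), with quantile normalization (0.0947), a lane term (0.152), the libraries without miR-295-3p (0.542) and without the Combo libraries (0.190), and miR-25-5p in the libraries without miR-295-3p (0.121). Leaving out each library in turn, calls ranged from 4 to 7 in High vs Low, 4 to 7 in Sublow vs Low, 6 to 7 in Negative vs Low, 2 to 4 in Negative vs Sublow, 4 to 5 in High vs Sublow and 4 to 6 in High vs Negative. The F test's adjusted p then ranged from 0.00888 to 0.158 for miR-92a-1-5p and 0.00533 to 0.107 for miR-92a-2-5p. The ratios ranged from 0.0313 to 0.192 for miR-92a-1-3p to miR-25-3p and 0.0324 to 0.148 for miR-92a-2-3p to miR-92a-1-3p. For single -5p entries, calls were lost in 8 of 14 such fits for miR-92a-1-5p in High vs Low (adjusted p up to 0.143), 4 in Sublow vs Low and 1 in Negative vs Low, in 5 for miR-25-5p in Sublow vs Low, and in 4 and 5 for miR-92a-2-5p in High vs Low and High vs Negative. What caused these changes was not tested, for the filter settings as well. The labels give libraries of the same number one code without saying what it marks, so the numbers were not taken as pairing. Deviations of libraries with the same number correlated at −0.354 to 0.776 over 26 pairs (median 0.329), 17 of them over 0.1. Over 52 pairs of different numbers the median was −0.106, with 11 over 0.1, and 11 of 14 libraries correlated best with their own number. With the replicate number as a block, miR-92a-1-3p in Negative vs Sublow (adjusted p = 0.0137) and miR-92a-2-5p in High vs Sublow (adjusted p = 0.0438) passed, and no other call of a member was gained or lost. Values of 0, as for some -5p arms, were read as fewer than about 10 reads and are limited by depth.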

Other observations

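Shifted forms that start 4 bases earlier appeared mostly in the 4 libraries whose labels read Combo and L000, terms that the labels do not explain (High replicates 1 and 2, Low replicates 2 and 3). Of 104 such entries in the table, 97 were above 0, 74 of them in those 4 libraries only, 14 in the other libraries only and 9 in both. By library, 77, 65, 39 and 61 of them were listed in the Combo libraries and 3 to 19 in the others. Among the members, this form of miR-92a-1-3p stood at 8.90 and 38.7 RPM in the High libraries and 6.44 and 10.8 RPM in the Low libraries of that kind, and at 0 elsewhere. That of miR-92a-2-3p stood at 4.58 and 19.9 RPM in the High libraries and 2.97 and 5.67 RPM in the Low libraries. The forms that start 1 base later showed no such split, with 48 of 309 in the Combo libraries only and 222 in both kinds.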
